A study of Mus musculus with 86 samples.

Results

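The genes described here are those of the collagen chains, the polypeptides that wind around each other in threes to form collagen. They were chosen from the count table as the symbols made of Col, a number, the letter a and a number, with a mean of 0.5 CPM (counts scaled to the library's total count) or more over the 86 libraries. Of 42807 genes listed, 44 had such a symbol and 34 reached that mean. Of these 34 genes, 10 code for fibrillar chains, 7 for basement membrane chains and 17 for other chains. The fibrillar group holds Col1a1, Col1a2, Col3a1, Col5a1, Col5a2, Col5a3, Col11a1, Col11a2, Col24a1 and Col27a1. The basement membrane group holds Col4a1 to Col4a5, Col15a1 and Col18a1. Among the other 17 are 4 type VI chains (Col6a1, Col6a2, Col6a3, Col6a6), 6 fibril-associated chains (Col9a1, Col12a1, Col14a1, Col16a1, Col20a1, Col22a1), 5 network, anchoring or further chains (Col7a1, Col8a1, Col8a2, Col26a1, Col28a1) and 2 transmembrane chains (Col13a1, Col23a1). Just inside the minimum lay Col13a1 at 0.695 CPM, and just outside lay Col25a1 at 0.456 CPM. The 10 symbols below it, Col2a1, Col4a6, Col6a4, Col6a5, Col9a2, Col9a3, Col10a1, Col17a1, Col19a1 and Col25a1, were not followed further.

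Fibrillar collagens, chiefly types I and III with type V as a minor partner, form the cable-like fibres of the connective tissue that wraps muscle fibres and joins them to tendon. Type IV collagen forms the sheet of the basement membrane around each muscle fibre and each capillary, in which types XV and XVIII are further components, and type VI collagen makes beaded filaments that link this sheet to the fibres outside it. In muscle, fibroblasts are the main source of fibrillar and type VI collagen, and endothelial cells, fibroblasts and muscle fibres contribute basement membrane chains. Glucocorticoids such as dexamethasone are known to lower collagen synthesis in connective tissue and to cause muscle atrophy.

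RNA had been sequenced from the gastrocnemius (GA), a calf muscle made mostly of fast fibres, and from the slow soleus (SO) beneath it, of male C57BL/6N mice that were 10 weeks old at supply and had 1 week of acclimation. In the GA of non-treated mice Myh4, a fast myosin, stood at 48610 CPM and Myh7, the slow myosin, at 369 CPM, against 281 and 7251 CPM in the SO. Each muscle had 9 groups. Non-treated mice received buffer (PBS) by injection and by gavage, and the DEX group received dexamethasone at 25 mg/kg by intraperitoneal injection each day for 10 days with PBS by gavage. The other 7 groups received the same dexamethasone injections and, by gavage, either Jakyak-gamcho-tang (JGT), a water extract of Paeoniae radix (peony root) and Glycyrrhizae radix (liquorice root), or, as the RSV group, resveratrol, a polyphenol of plants used as positive control at a dose of 200 mg/kg. JGT02 was made from peony and liquorice at 2:1, JGT03 at 1:1 and JGT04 at 1:2, with doses of 100 and 400 mg/kg for every ratio. Extracts and RSV were given in PBS with 0.5% carboxymethyl cellulose, and the DEX and non-treated mice were gavaged without the cellulose, so effects of the cellulose and of the treatment cannot be told apart. The DEX group and JGT04 at 400 mg/kg had 4 mice, the other groups 5.

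Total counts ran from 22.3 to 32.1 M counts in GA libraries and from 18.8 to 34.6 M counts in SO libraries. A single library in each muscle, both of JGT02 at 100 mg/kg (mouse 1 in GA, mouse 5 in SO), stood apart and was left out of every value below unless stated, which leaves 42 libraries a muscle. In the sums and Myh3 levels that follow, CPM are scaled to the TMM-adjusted library total of a fit with every library of the muscle kept. The 34 collagen genes summed to 6194 CPM in that GA library against 342 to 1268 CPM in the other 42, and to 8973 CPM in that SO library against 331 to 1045 CPM. Myh3, the embryonic myosin, stood at 1239 and 1065 CPM in these libraries, against at most 25.9 and 122 CPM in the others. Mouse 1 of JGT02 at 400 mg/kg in SO, which was kept, also differed from the rest, with Col9a1 at 5.10 CPM against at most 0.370 CPM in the other SO libraries kept. It also had the highest Col7a1 of the SO libraries kept, at 12.2 CPM, within the range of GA, 9.54 to 20.4 CPM. Without it too, each count of called members stayed within 1.5 times, with 12 members called for DEX against non-treated SO, 18 for its own group against DEX, 6 for JGT04 at 400 mg/kg and 20 for the difference between muscles. In the order in which the libraries are listed there are 3 sets, of 32, 28 and 26 libraries, which the labels do not name. The titles give every library the same batch label, and whether the sets were processed apart is not known. A later set is one further on in that order. Within each muscle DEX shares its set with the non-treated mice, while several treated groups come from a later one, as stated with each result. From here on CPM are scaled to the TMM-adjusted library total, values are mean ± SD, and a gene is called changed where the edgeR quasi-likelihood test gave an adjusted p under 0.05 (Benjamini-Hochberg over all genes of the fit). The labels number the mice and name no other source of replicates, so p values measure the spread between these mice.

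Upstream sequences are printed for 4 members whose responses the results turn on, a fibrillar chain that fell in GA (Col3a1), a fibrillar chain that also fell further in treated groups (Col5a1), a basement membrane chain (Col15a1) and the network chain that was higher than DEX in GA under 4 treatments (Col8a1). Each is the 250 bases before the gene's start on the gene's strand, from RefSeq on GRCm38.p6, with no base in an annotated exon. Capitals mark 4 motifs searched on both strands, so that the complement is marked too. They are the TATA box, with the letters TATAAA, the box with the letters CCAAT, the GC box, with the letters GGGCGG, and one arm of the glucocorticoid receptor element, with the letters AGAACA.
Col3a1, chr1:45311288-45311537, plus strand: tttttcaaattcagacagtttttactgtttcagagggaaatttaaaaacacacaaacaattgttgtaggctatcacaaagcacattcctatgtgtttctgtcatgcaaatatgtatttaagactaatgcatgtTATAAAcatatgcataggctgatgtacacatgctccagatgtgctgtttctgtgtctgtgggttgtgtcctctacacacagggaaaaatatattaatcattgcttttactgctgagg
Col5a1, chr2:27886175-27886424, plus strand: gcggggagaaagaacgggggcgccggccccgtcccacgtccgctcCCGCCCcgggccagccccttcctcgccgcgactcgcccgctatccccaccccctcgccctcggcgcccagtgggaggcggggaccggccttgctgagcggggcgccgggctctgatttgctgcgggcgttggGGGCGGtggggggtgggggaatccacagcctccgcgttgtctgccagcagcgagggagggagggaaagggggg
Col15a1, chr4:47207762-47208011, plus strand: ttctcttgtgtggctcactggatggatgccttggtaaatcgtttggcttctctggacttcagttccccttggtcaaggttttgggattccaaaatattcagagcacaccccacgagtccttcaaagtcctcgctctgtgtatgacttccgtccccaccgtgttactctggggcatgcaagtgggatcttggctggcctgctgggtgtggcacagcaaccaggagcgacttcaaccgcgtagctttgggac
Col8a1, chr16:57754738-57754987, minus strand: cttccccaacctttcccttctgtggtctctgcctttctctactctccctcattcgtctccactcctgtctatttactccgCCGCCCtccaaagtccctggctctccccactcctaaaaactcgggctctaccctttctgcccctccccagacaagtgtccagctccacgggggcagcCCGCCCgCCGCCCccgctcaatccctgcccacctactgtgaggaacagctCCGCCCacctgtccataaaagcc
Col3a1 holds a TATA box, Col5a1 and Col8a1 hold GC boxes, and the window of Col15a1 holds none of the motifs. The RefSeq table gave 30 windows for 27 of the 34 members. Col1a1, Col4a3, Col5a2, Col12a1, Col14a1, Col22a1 and Col26a1 have no entry in it. A GC box was in 56.7% of the 30 windows and in 32.7% of all 32851 windows of this length, a TATA box in 10% against 12.4%, and CCAAT in 33.3% against 33.8%. The arm of the receptor element was in 6.67% against 16.1%, and the whole palindromic glucocorticoid receptor element was in none of the members' windows and in 0.00913% of all. These are matches of letters, not sites of binding.

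Several members are neighbours in the genome (GRCm38). Col4a1 (chromosome 8, 11198423 to 11312826, minus strand) and Col4a2 (11312805 to 11449287, plus strand) run head to head and their first exons overlap by 22 bases. Col4a4 and Col4a3 (chromosome 1) run head to head with a gap of 71 bases between the starts, from 82586850 to 82586920: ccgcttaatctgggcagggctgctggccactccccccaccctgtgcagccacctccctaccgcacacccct. Col3a1 (chromosome 1, 45311538 to 45349706) lies beside Col5a2 (45374321 to 45503282), and Col6a1 and Col6a2 lie side by side on chromosome 10. Exons of 7 members overlap exons on the other strand, by 563 bases in Col4a3, 212 in Col5a1 and at most 65 in Col4a1, Col4a2, Col15a1, Col22a1 and Col6a6, and without strand in the counting the reads of both genes would be mixed there. No member shared more than 4.31% of its 31-base words with another gene.

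In non-treated GA the type I chains had the highest collagen levels per length of transcript (CPM per kilobase of exon). Col1a2 stood at 37.2 ± 7.1 and Col1a1 at 33.0 ± 6.0 CPM per kb (n = 5), followed by Col3a1 at 20.3, Col4a1 at 19.3, Col6a1 at 15.8, Col4a2 at 13.9, Col6a2 at 12.4 and Col15a1 at 6.79 CPM per kb. The first 2 overlapped each other between libraries, as did the run from Col3a1 to Col6a2 from each gene to the next, while Col1a1 and Col3a1 did not. At the low end of the per-length order, Col4a3, Col4a4, Col27a1, Col28a1 and Col13a1 stood between 0.204 and 0.287 CPM per kb. Of the 33 neighbouring pairs in this order, 27 overlapped in GA and 30 in SO. In SO the highest per-length level was that of Col1a1, 19.2 CPM per kb, and Col4a1, at 16.9, came before Col3a1, at 15.5. Together the 34 genes took 0.108% of the TMM-adjusted library total in non-treated GA and 0.0768% in non-treated SO, each muscle scaled in its own fit.

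Most collagen genes fell in the gastrocnemius of mice given dexamethasone alone. Of the 34 members 27 fell in DEX against non-treated GA and none rose, where 13.2% of the 14428 genes tested were called lower and 13.2% higher. The median log2 fold change was -0.66 over the members and -0.01 over all genes. All 10 fibrillar chains except Col27a1 fell (median -1.12), all 7 basement membrane chains fell (median -0.58), and 11 of the 17 other chains fell (median -0.55). For 20 members every DEX library lay below every non-treated one, and 8.69% of all genes did the same (9.14% lay apart in the other direction). In a bulk sample, fewer collagen-making cells and less collagen RNA per cell cannot be told apart.

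**Figure D1:**
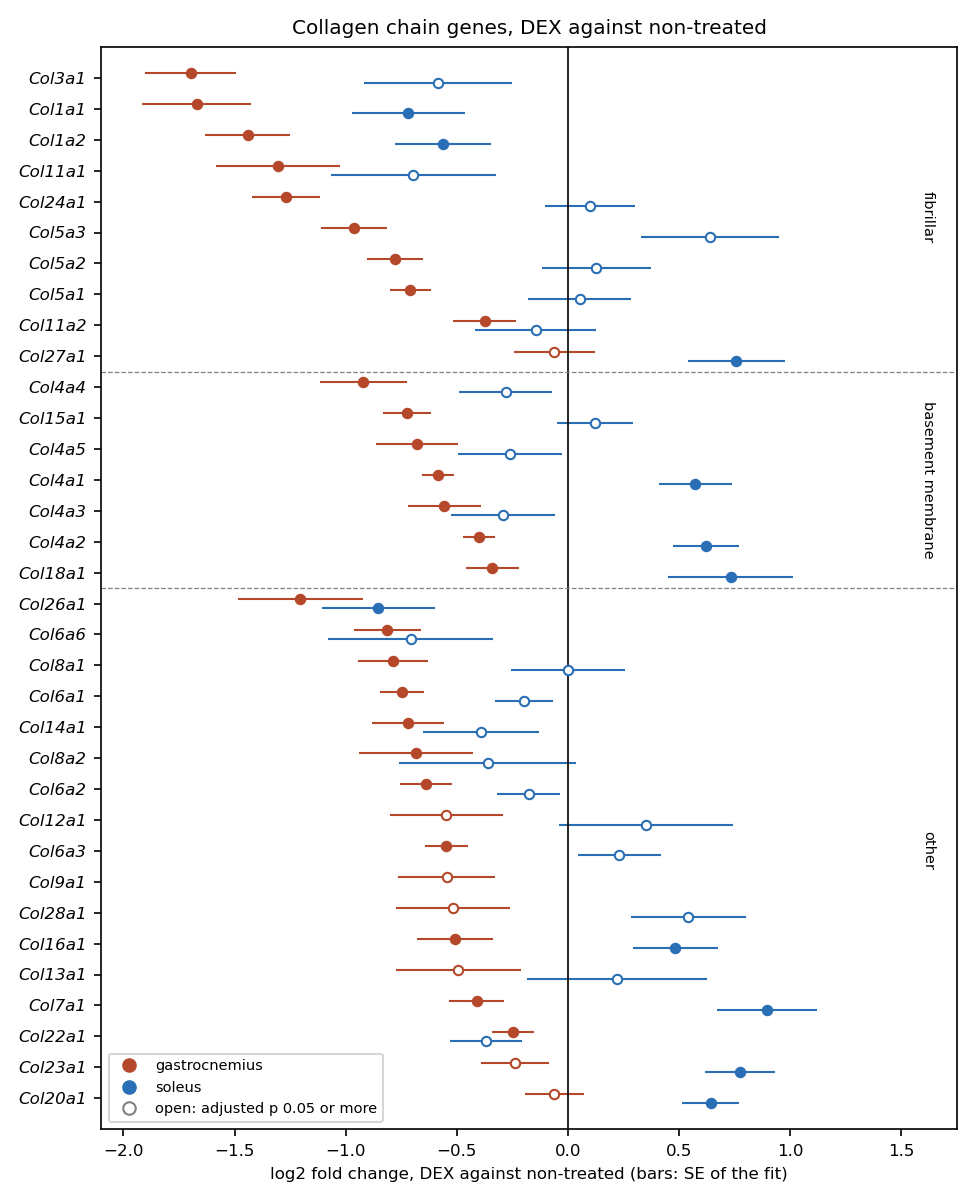
Log2 fold change of each collagen gene in DEX against non-treated mice, with its SE as a bar, in GA (red) and SO (blue), by class of chain; open points have an adjusted p of 0.05 or more. In GA all 34 points lie below 0, from -1.70 for Col3a1 to -0.06, while in SO they lie on both sides, from -0.85 for Col26a1 to 0.89 for Col7a1.

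Among the fibrillar chains the largest falls in GA were those of types III and I. Col3a1, the single chain of type III collagen, stood at 113, 103, 114, 118 and 100.3 CPM in the 5 non-treated mice and at 34.4, 36.2, 23.8 and 40.3 CPM in the 4 DEX mice. The groups lay far apart, and the log2 fold change was -1.70 ± 0.21 (SE, adjusted p = 4.27e-08). Col1a1, the major chain of type I, stood at 144, 177, 198, 239 and 193 CPM without and at 72.4, 62.7, 39.9 and 63.4 CPM with DEX. Its groups did not overlap either, with a log2 fold change of -1.67 ± 0.25 (adjusted p = 1.81e-06). Col1a2, its partner chain, fell by 1.44 ± 0.19 on the log2 scale (adjusted p = 2.41e-07).

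The minor fibrillar chains also fell. Col24a1 (type XXIV, a low-level fibrillar chain) stood at 3.46, 3.92, 3.35, 4.46 and 4.07 CPM without DEX and at 1.60, 1.79, 1.22 and 1.76 CPM with it, without overlap, and its log2 fold change was -1.27 ± 0.15 (adjusted p = 4.08e-08). The type V chains, which set the diameter of type I fibrils, fell by 0.71 ± 0.09 (Col5a1, adjusted p = 1.68e-07), 0.78 ± 0.13 (Col5a2, adjusted p = 9.02e-06) and 0.96 ± 0.15 (Col5a3, adjusted p = 3.09e-06) on the log2 scale. Col11a1 (-1.30 ± 0.28, adjusted p = 0.000461) and Col11a2 (-0.38 ± 0.14, adjusted p = 0.0457), chains of the cartilage-type fibril, fell with overlap between the groups. Col27a1 had a log2 fold change of -0.06 ± 0.18 (adjusted p = 0.844).

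All 7 basement membrane chains fell in GA. Col4a1 stood at 135, 122, 116, 132 and 114 CPM in non-treated GA and at 74.4, 87.7, 78.7 and 89.1 CPM in DEX. No library overlapped, and the log2 fold change was -0.58 ± 0.07 (adjusted p = 4.47e-08). Its partner Col4a2 fell by 0.40 ± 0.07 on the log2 scale (adjusted p = 6.32e-05). Col15a1, whose product bridges the basement membrane to the fibrils outside, stood at 34.1, 34.6, 32.3, 37.7 and 31.5 CPM without and at 19.6, 19.6, 21.0 and 22.2 CPM with DEX, again without overlap, a log2 fold change of -0.72 ± 0.11 (adjusted p = 1.71e-06). The scarcer type IV chains fell as well, Col4a4 by 0.92 ± 0.19 (adjusted p = 0.000392), Col4a5 by 0.68 ± 0.19 (adjusted p = 0.00519) and Col4a3 by 0.56 ± 0.16 (adjusted p = 0.00965) on the log2 scale. Col18a1, the precursor of endostatin, fell by 0.34 ± 0.12 (adjusted p = 0.0313).

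All 4 type VI chains fell in GA. Col6a1 stood at 60.8, 64.5, 58.6, 70.8 and 59.4 CPM without and at 38.2, 39.9, 32.7 and 38.9 CPM with DEX, with no overlap and a log2 fold change of -0.75 ± 0.10 (adjusted p = 2.46e-07). Col6a2 (-0.64 ± 0.12, adjusted p = 4.89e-05), Col6a3 (-0.55 ± 0.10, adjusted p = 3.11e-05) and Col6a6 (-0.81 ± 0.15, adjusted p = 6.24e-05) likewise showed no overlap. Of the 6 fibril-associated chains 3 fell, namely Col14a1 (-0.72 ± 0.16, adjusted p = 0.000847), Col16a1 (-0.51 ± 0.17, adjusted p = 0.0251) and Col22a1, a chain of the muscle-tendon junction (-0.25 ± 0.09, adjusted p = 0.0456). Among the network, anchoring or further chains, Col8a1 (-0.79 ± 0.16, adjusted p = 0.000191), Col26a1 (-1.20 ± 0.28, adjusted p = 0.0012), Col8a2 (-0.68 ± 0.26, adjusted p = 0.0443) and Col7a1, the chain of anchoring fibrils (-0.41 ± 0.12, adjusted p = 0.0117), fell. Not called were Col12a1 (-0.55), Col9a1 (-0.55), Col28a1 (-0.52), Col13a1 (-0.49), Col23a1 (-0.24) and Col20a1 (-0.06).

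Markers of tendon and of endothelium moved with this change in GA, where 13.2% of all genes were called lower and 13.2% higher. Of the 8 tendon markers 7 were lower, among them Tnmd (-1.61) and Cilp2 (-2.22), and Scx was higher (0.52). Their summed level ran from 183 to 495 CPM without and from 106 to 241 CPM with DEX, so the groups overlapped. Of the 8 endothelial markers 5 were lower and none higher, from 324 to 338 CPM in sum without and from 268 to 289 CPM with DEX. Of the 9 fibroblast markers 1 was lower, near the share of all genes. Their part in the collagen result was not tested. With the GA library that stands apart kept in the fit, 6 members were called, all lower. When each of the 9 libraries was left out in turn, 21 to 27 members were called, the fewest without DEX mouse 4, and 20 of the 27 calls held every time.

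Averaged over the treated groups, most collagen genes of GA stayed below the non-treated level. The mean of the 7 treated groups was lower than non-treated for 28 members and higher for none (22.0% and 20.9% of all genes), with a median log2 difference of -0.66. Among them were 9 fibrillar, 6 basement membrane and 13 other chains. Of the 34 members, 30 had their highest group mean in non-treated GA, and 19 had their lowest in JGT04 at 400 mg/kg. The fibrillar chains summed to 584 ± 77 CPM in non-treated GA, 217 ± 39 CPM in DEX and between 145 and 211 CPM in the treated groups. Basement membrane chains summed to 260 ± 18, 180 ± 11 and between 121 and 166 CPM, and the other chains to 234 ± 20, 157 ± 11 and between 125 and 148 CPM, in the same order.

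**Figure D2:**
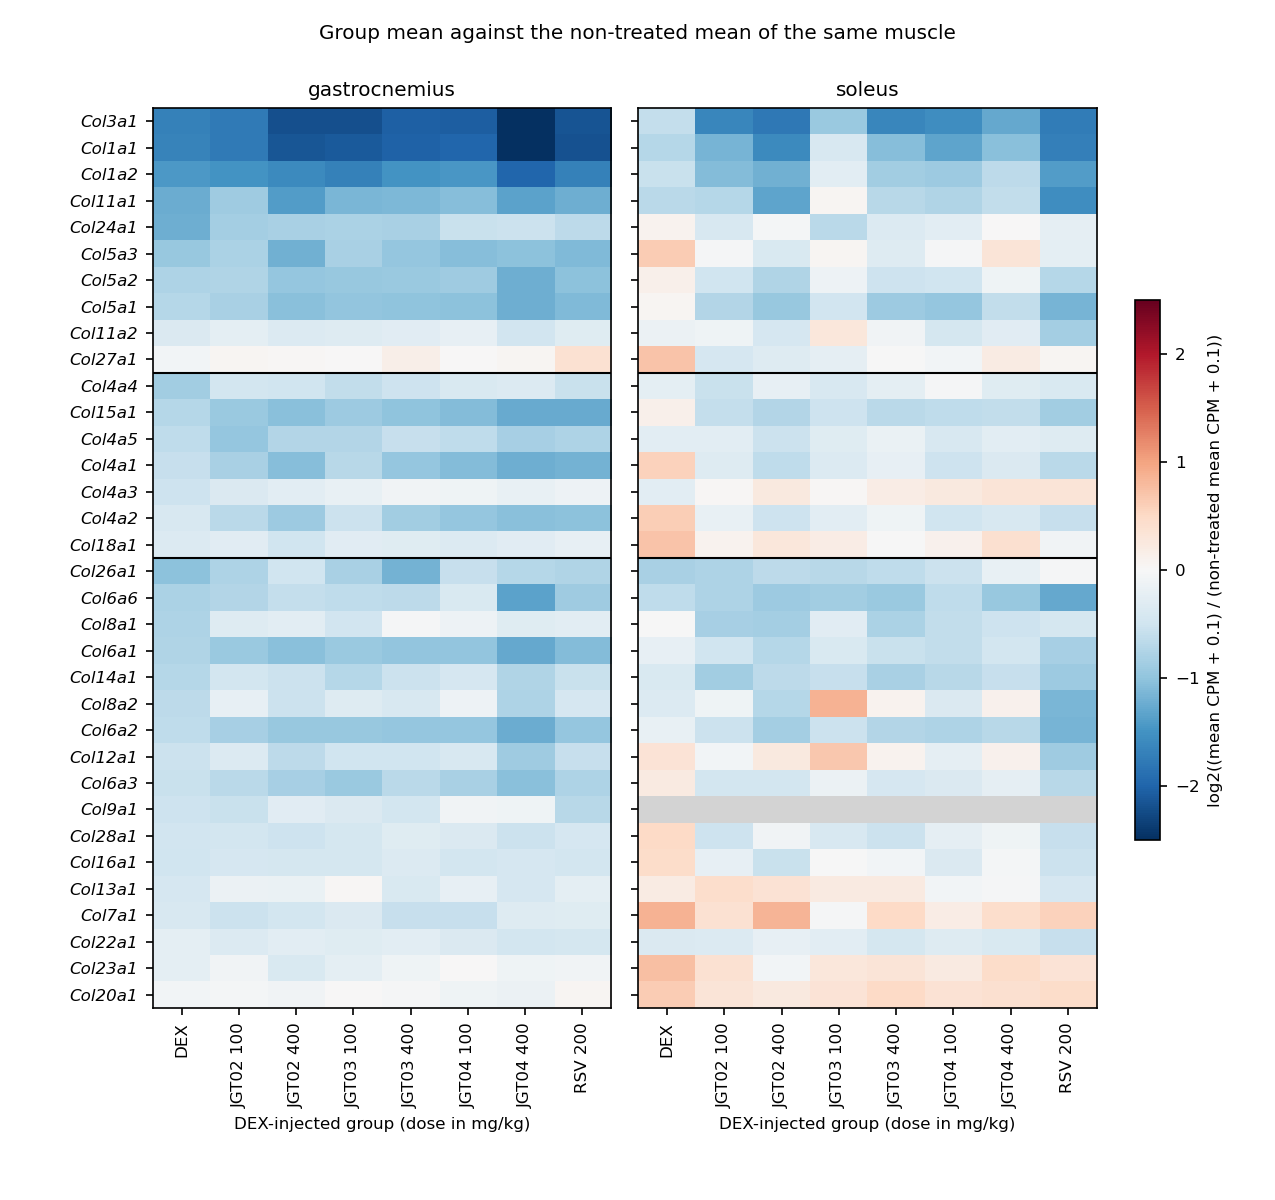
Mean level of each collagen gene in the 8 dexamethasone-injected groups, as log2 of its ratio to the non-treated mean of the same muscle (0.1 CPM added to both), GA on the left and SO on the right, by class of chain; Col9a1 is grey in SO. In GA the rows of Col1a1 and Col3a1 are lowest throughout, and in SO the DEX column differs from the 7 treated columns for Col4a1, Col4a2 and Col15a1.

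The abundant chains had their highest mean in non-treated GA. Mean levels of Col1a1 were 190.0 ± 34.5 CPM in non-treated, 59.6 ± 13.9 CPM in DEX and from 31.98 ± 9.63 CPM (JGT04 at 400 mg/kg) to 55.6 CPM (JGT02 at 100 mg/kg) in treated mice. For Col1a2 they were 193 ± 37, 71.0 ± 17.1 and 48.8 to 70.2 CPM, and for Col3a1 109 ± 8, 33.7 ± 7.0 and 19.4 to 31.9 CPM. For all 3 of these chains the treated groups lay at or below the DEX group.
Col5a1 stood at 26.3 ± 2.5 CPM without DEX, 16.1 ± 0.9 CPM with it and 11.2 to 14.9 CPM in treated groups. Col5a2 stood at 20.9, 12.2 and 8.86 to 12.4 CPM, and Col5a3 at 29.1, 14.97 and 12.7 to 16.7 CPM, each in that order. Every treated mean of Col5a1 lay under its DEX mean, while the treated means of Col5a2 and Col5a3 lay on both sides of theirs.
In the basement membrane group, Col4a1 had means of 124 ± 10, 82.5 ± 7.1 and 53.2 to 76.4 CPM, Col4a2 of 86.7 ± 7.3, 65.7 ± 3.4 and 42.0 to 59.9 CPM, and Col15a1 of 34.04 ± 2.40, 20.6 ± 1.3 and 14.1 to 18.04 CPM. Every treated mean of these 3 genes lay under the DEX mean.
Type VI means were 62.8, 37.5 and 26.0 to 33.2 CPM for Col6a1, 47.6, 30.5 and 20.1 to 26.7 CPM for Col6a2, and 38.9, 26.6 and 18.9 to 24.4 CPM for Col6a3. Col7a1 stood at 17.4, 13.1 and 11.6 to 14.2 CPM, and Col22a1 at 24.5, 20.6 and 17.9 to 20.5 CPM.

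**Figure D3:**
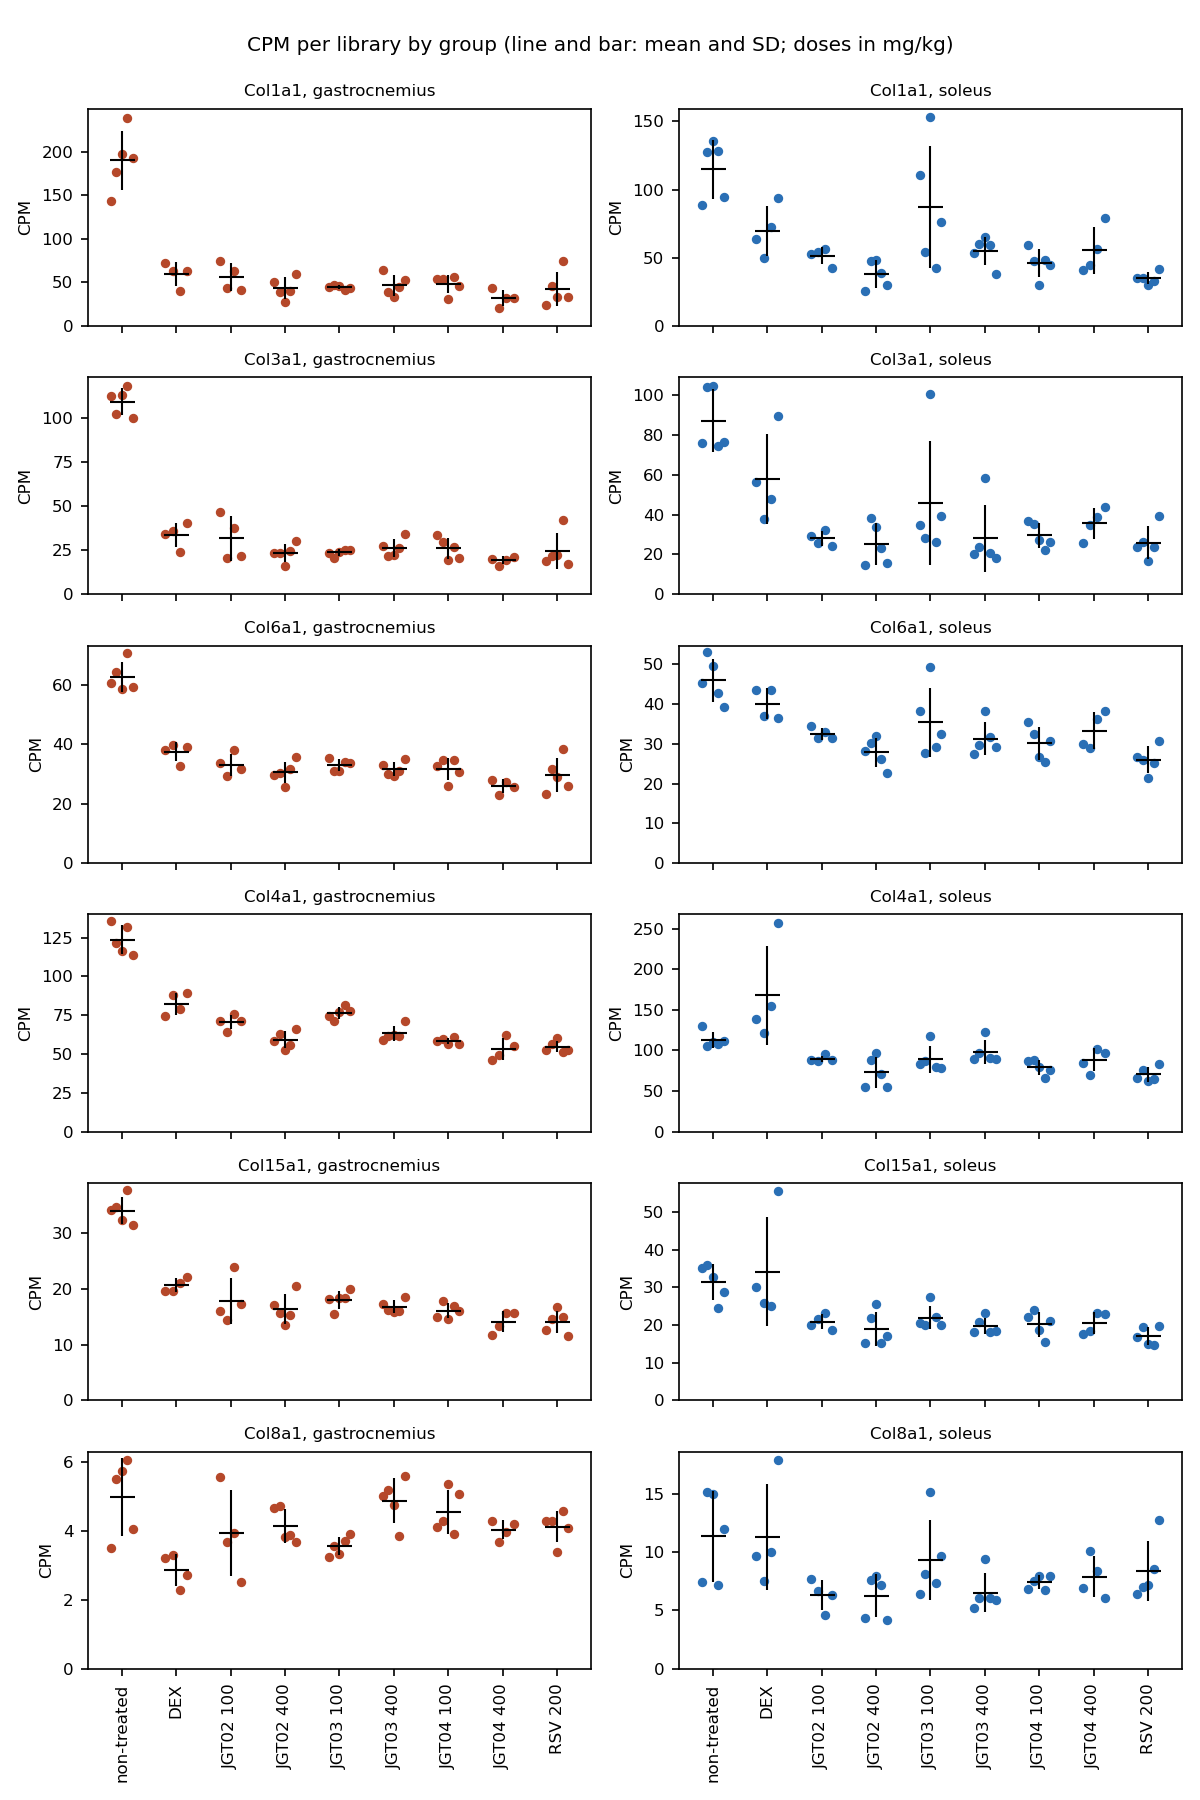
CPM of Col1a1, Col3a1, Col6a1, Col4a1, Col15a1 and Col8a1 in each library (points) by group, with the group mean and SD, in GA and SO. In GA the non-treated points of Col1a1, from 144 to 239 CPM, lie above all others, and in SO DEX mouse 4 is the highest point of Col4a1, at 257 CPM, and of Col15a1, at 55.5 CPM.

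Set against DEX, few GA members changed in most treated groups, and Col4a1 and Col4a2 were called lower in 5 of the 7. These 7 comparisons share the 4 DEX mice, so their values are not independent of each other. JGT02 at 100 mg/kg called no member in edgeR (0.596% of all genes were higher and 0.367% lower), with 5 members at an unadjusted p under 0.05 and 1 called by DESeq2, and 15 were called higher with the library that stands apart kept. JGT03 at 100 mg/kg called 1, Col6a3 (-0.38, adjusted p = 0.0442; 0.749% of all genes were higher and 0.423% lower) but none when DEX mouse 2 or 4, or any of its own 5 mice, was left out. JGT02 at 400 mg/kg called 4 (3.06% of all genes were higher and 2.64% lower), Col4a1 (-0.48, adjusted p = 3.06e-05), Col4a2 (-0.51, adjusted p = 2.21e-05), Col5a1 (-0.33, adjusted p = 0.0317) and, higher, Col8a1 (0.53, adjusted p = 0.0401). In that group 2 members were called without DEX mouse 2 or 4 or its own mouse 1, 2 or 3, and 8 without its mouse 5. JGT03 at 400 mg/kg called 3 (3.29% of all genes were higher and 3.2% lower), Col4a1 (-0.38, adjusted p = 0.000601), Col4a2 (-0.47, adjusted p = 9e-05) and, higher, Col8a1 (0.76, adjusted p = 0.00215).

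The groups that lie in a later set than DEX, in part or whole, had the most calls in GA. JGT04 at 100 mg/kg, with mice 4 and 5 in a later set, called 6 (4.57% of all genes were higher and 4.79% lower), lower Col4a1 (-0.50, adjusted p = 7.23e-06), Col4a2 (-0.56, adjusted p = 1.9e-06), Col15a1 (-0.36, adjusted p = 0.033) and Col5a1 (-0.32, adjusted p = 0.028) and higher Col24a1 (0.70, adjusted p = 0.00367) and Col8a1 (0.65, adjusted p = 0.00634). With the set term Col15a1 (adjusted p = 0.0701) and Col5a1 (adjusted p = 0.0615) were no longer called. RSV called 7 (4.58% of all genes were higher and 4.89% lower), lower Col4a1 (-0.59), Col4a2 (-0.63), Col15a1 (-0.55), Col5a1 (-0.39) and Col6a1 (-0.34) and higher Col24a1 (0.59) and Col8a1 (0.52), with adjusted p from 3.11e-07 to 0.0312. JGT04 at 400 mg/kg called 12, of which 11 were lower (5.63% of all genes) and Col24a1 was higher (0.71 ± 0.17, adjusted p = 0.00368; 5.72% of all genes). The 5 with the smallest adjusted p were Col4a1 (-0.63, 3.43e-07), Col4a2 (-0.65, 5.3e-07), Col5a1 (-0.52, 0.000634), Col6a1 (-0.53, 0.000853) and Col6a2 (-0.60, 0.00132).

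Type IV levels in these groups lay clear of DEX. Col4a1 stood at 46.5, 49.1, 61.9 and 55.4 CPM in JGT04 at 400 mg/kg and at 52.8, 56.4, 60.4, 51.5 and 52.5 CPM in RSV, all below the lowest DEX mouse, at 74.4 CPM. With a term for the set in the fit, the log2 differences of Col4a1 were -0.64 (adjusted p = 0.00991) and -0.60 (adjusted p = 0.0132), and those of Col4a2 -0.72 (adjusted p = 0.00507) and -0.70 (adjusted p = 0.00629). No other member was called in these 2 groups with that term, so only the type IV pair was called on both fits there. Calls over all 14428 genes fell too, from 825 higher and 812 lower to 29 and 23 in JGT04 at 400 mg/kg. In RSV they fell from 661 higher and 706 lower to 24 and 22. In GA the set term rests on the lower JGT04 dose, the only group there with mice in both sets. The loss of the other members therefore cannot be told from this general loss of calls.
Endothelial markers, which sum to 268 to 289 CPM in DEX, summed to 184 to 265 CPM in JGT04 at 400 mg/kg and to 202 to 257 CPM in RSV. Their part in the type IV values was not tested.

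Col8a1 and Col24a1 were the 2 members called higher than DEX in GA. Col8a1, a chain of the short-chain network collagen of vessel walls, stood at 3.21, 3.29, 2.28 and 2.72 CPM in DEX and at 5.01, 5.18, 4.75, 3.84 and 5.58 CPM in JGT03 at 400 mg/kg. It stood at 4.11, 4.28, 5.35, 3.90 and 5.06 CPM in JGT04 at 100 mg/kg, and the 5 non-treated mice at 3.49 to 6.06 CPM. Every mouse of both treated groups lay above every DEX mouse and within the non-treated range.
Col24a1 stood at 1.22 to 1.79 CPM in the 4 DEX mice. It stood at 2.27, 2.12, 2.83, 3.00 and 2.74 CPM in JGT04 at 100 mg/kg and at 2.74, 3.06, 2.36 and 2.31 CPM in JGT04 at 400 mg/kg. Both groups lay above DEX and below the lowest non-treated mouse, at 3.35 CPM. With the set term the difference of Col24a1 was 0.46 (adjusted p = 0.538) for JGT04 at 400 mg/kg and 0.34 (adjusted p = 0.689) for RSV, and that of Col8a1 for RSV was 0.54 (adjusted p = 0.459). Set and treatment cannot be told apart for those 3 values.

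In non-treated mice the soleus had less of most collagen chains than the gastrocnemius. Of the 34 members 18 were lower in SO and 4 were higher (28.7% of the 15149 genes tested in each direction). No fibrillar chain was higher and 6 were lower, with Col1a2 at -1.04 ± 0.19 (adjusted p = 3.93e-06), Col24a1 at -0.89 ± 0.16 and Col1a1 at -0.78 ± 0.24 on the log2 scale. All 4 type VI chains were lower, Col6a6 by the most (-1.80 ± 0.23, adjusted p = 1.65e-10). Col7a1 was lower by -2.36 ± 0.18 (adjusted p = 1.95e-19), at 3.16 to 4.03 CPM in SO against a mean of 17.4 CPM in GA. Col9a1, a chain known from cartilage, was at 0 CPM in 3 of the 5 non-treated SO mice and at most 0.134 CPM, against 1.74 to 3.19 CPM in GA (log2 difference -6.03 ± 0.66). Higher in SO were Col26a1 (1.83 ± 0.23), Col8a1 (1.13 ± 0.20), Col23a1 (0.80 ± 0.15) and Col4a5 (0.71 ± 0.19). The type IV pair Col4a1 (-0.19, adjusted p = 0.177) and Col4a2 (-0.15, adjusted p = 0.256) was not called. The 2 non-treated groups lie in different sets. With a set term, which other groups of both muscles inform, 4 members were called higher and 12 lower.

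In the soleus dexamethasone moved the chains in both directions. Of 33 members tested (Col9a1 was too low), 8 rose and 3 fell, where 22.4% of the 14708 genes were called higher and 16.7% lower, so the members' share was near or below that of all genes. The median log2 fold change was 0.05 over members and 0.05 over all genes. Col1a1 and Col1a2 fell, while Col4a1, Col4a2, Col18a1, Col7a1, Col16a1, Col20a1, Col23a1 and Col27a1 rose, and the third fall was that of Col26a1. For 7 members every DEX library lay above every non-treated one, against 12.7% of all genes, and for 1, Col26a1, below, against 13.4%.

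Both type I chains fell in SO. Col1a1 stood at 88.3, 128, 136, 128 and 94.2 CPM in non-treated SO and at 63.6, 49.7, 72.1 and 93.6 CPM in DEX. Mouse 4 of DEX reached into the non-treated range, and the log2 fold change was -0.72 ± 0.26 (adjusted p = 0.0242). Col1a2 fell by 0.56 ± 0.22 on the log2 scale (adjusted p = 0.0361). Col3a1, at 76.1, 104, 104, 74.4 and 76.1 CPM without and 56.3, 38.0, 47.8 and 89.6 CPM with DEX, had a log2 fold change of -0.59 ± 0.33 (adjusted p = 0.163), with DEX mouse 4 again the highest of its group. Col26a1 fell by 0.85 ± 0.25 (adjusted p = 0.00753).

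The type IV pair rose in SO, and 1 mouse carries much of the size. Col4a1 stood at 130, 106, 110, 108 and 111 CPM in non-treated SO and at 139, 121, 155 and 257 CPM in DEX. The group ranges overlapped, and mouse 4 was far above the rest, with a log2 fold change of 0.57 ± 0.16 (adjusted p = 0.00565). Col4a2 stood at 96.0, 78.3, 81.0, 75.4 and 75.6 CPM without and 106.7, 96.9, 106.6 and 189 CPM with DEX (0.62 ± 0.15, adjusted p = 0.00137), with no overlap. Without DEX mouse 4 the values were 0.28 (adjusted p = 0.16) for Col4a1 and 0.34 (adjusted p = 0.0541) for Col4a2. Col18a1 rose by 0.73 ± 0.28 (adjusted p = 0.0365) and stood at 0.43 (adjusted p = 0.282) without that mouse, and Col15a1 had 0.12 ± 0.17 (adjusted p = 0.607).

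The rises that held without DEX mouse 4 were those of 3 scarcer chains. Col7a1 stood at 4.03, 3.91, 3.39, 3.19 and 3.16 CPM in non-treated SO and at 6.78, 7.21, 6.42 and 5.90 CPM in DEX, apart from each other (0.89 ± 0.23, adjusted p = 0.00199). Col23a1, a transmembrane chain, stood at 4.53, 4.64, 4.68, 3.55 and 4.75 CPM without and 7.83, 7.30, 7.96 and 7.22 CPM with DEX (0.77 ± 0.16, adjusted p = 0.000246). Col20a1, a fibril-associated chain, stood at 3.63, 3.19, 3.43, 3.96 and 3.53 CPM without and at 5.49, 5.96, 6.54 and 4.16 CPM with DEX (0.64 ± 0.13, adjusted p = 0.000189). In each of these genes every DEX mouse lay above every non-treated mouse, mouse 4 being the lowest of DEX in all 3. Col27a1 (0.76 ± 0.22, adjusted p = 0.0057) and Col16a1 (0.48 ± 0.19, adjusted p = 0.0436) rose with all mice and were at 0.44 and 0.39, not called, without DEX mouse 4. In all 4 members were called without that mouse, 3 higher and Col1a1 lower (-0.90, adjusted p = 0.0138). With each library left out in turn, 3 of the 11 calls held every time.

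Marker genes of several cell types moved in SO under DEX, where 22.4% of all genes were called higher and 16.7% lower. Of the 9 fibroblast markers 2 rose, near the share of all genes, and none fell. Their sum was 1067, 858, 1019 and 412 CPM in the 4 DEX mice against 422 to 633 CPM in non-treated mice, so that mouse 4 lay below and the others above all of these. Of the 8 endothelial markers 5 rose, from 330 to 429 CPM in sum without to 449 to 570 CPM with DEX, and 5 of 6 mural markers rose. All 8 Schwann cell markers rose, with sums of 811 and 696 CPM in DEX mice 1 and 3, 151 and 97.2 CPM in mice 2 and 4, and 110 to 191 CPM in non-treated mice. All 6 adipocyte markers rose in both muscles. Macrophage markers summed to 159 CPM in DEX mouse 4 and to 24.6 to 43.1 CPM in the other 3, and tendon markers to 215 CPM in that mouse against 93.8 to 123 CPM. The part of these cells in the collagen values was not tested.

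The response to dexamethasone differed between the muscles. Of the 34 members 18 had a difference between the SO and the GA fold change that passed the test (interaction term), all with the SO value higher, while 13.6% of the 15149 genes were called in that direction and 17.2% in the other. The median difference over members was 0.75 on the log2 scale, and 0.02 over all genes. Among them were 7 fibrillar, 4 basement membrane and 7 other chains. The largest was Col5a3 (1.54 ± 0.35, adjusted p = 0.000477), which had a log2 fold change of -0.96 in GA and 0.64 (adjusted p = 0.101) in SO. The smallest adjusted p were those of Col4a1 (1.09 ± 0.18, 3.35e-06), Col4a2 (0.96 ± 0.17, 1.24e-05) and Col24a1 (1.31 ± 0.25, 4.69e-05). For Col1a1 the difference was 0.89 ± 0.36 (adjusted p = 0.0506) and for Col3a1 1.05 ± 0.39 (adjusted p = 0.0341). Since DEX and non-treated mice of each muscle share a set, this is a difference of differences within sets. Whether both muscles came from the same mice is not stated, and the fit took the libraries as independent. Without SO DEX mouse 4, 11 members were called, all higher in SO, and 7 were lost, namely Col3a1 (0.75), Col5a1 (0.60), Col5a2 (0.61), Col27a1 (0.44), Col15a1 (0.43), Col18a1 (0.71) and Col6a3 (0.53). With each library left out in turn, 8 of the 18 calls held every time. All 8 endothelial and all 8 Schwann markers also had a higher fold change in SO than in GA.

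In each of the 7 treated soleus groups more collagen genes were called lower than higher against DEX, and Col4a1, Col4a2 and Col15a1 were among the lower ones every time. These comparisons share the 4 SO DEX mice, mouse 4 included. Lower members numbered 10 in JGT02 at 100 mg/kg (18.2% of all genes were lower), 17 in JGT02 at 400 mg/kg (18.9%), 8 in JGT03 at 100 mg/kg (15%), 14 in JGT03 at 400 mg/kg (13.6%), 13 in JGT04 at 100 mg/kg (15.8%), 4 of 33 in JGT04 at 400 mg/kg (10.7%, near the members' share) and 19 in RSV (18.3%). Higher members numbered 1 in JGT03 at 100 mg/kg (10.5% of all genes were higher), 2 in RSV (13.6%) and 0 in the others (7.21% to 17.1% of all genes, with 8.78% in JGT03 at 400 mg/kg), where 0 to 2 members were higher at an unadjusted p under 0.05 and DESeq2 also called 0. Median log2 differences over the members ran from -0.28 (JGT03 at 100 mg/kg) to -0.83 (RSV).

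**Figure D4:**
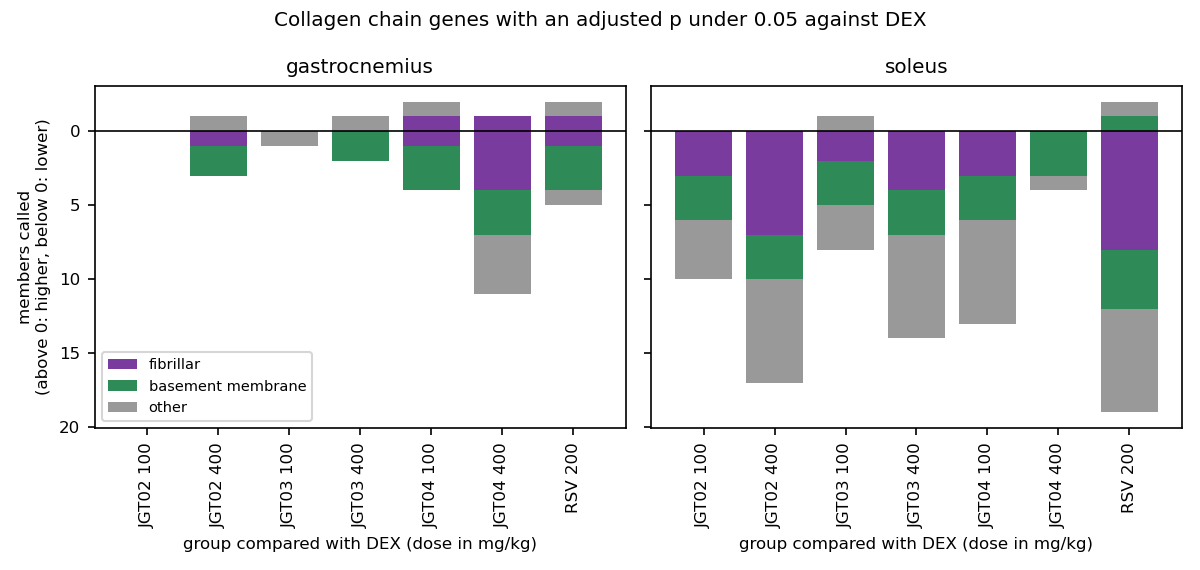
Number of collagen genes called higher (above 0) or lower (below 0) than DEX in each treated group, stacked by class of chain, in GA (34 tested) and SO (33 tested). Lower calls reach 11 genes in GA, in JGT04 at 400 mg/kg, and 19 in SO, in RSV.

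Col4a1, Col4a2 and Col15a1 were lower than DEX in all 7 treated SO groups. For Col4a1 the log2 differences ran from -0.77 ± 0.16 (JGT03 at 400 mg/kg, adjusted p = 0.00122) to -1.25 ± 0.16 (RSV, adjusted p = 1.95e-06), for Col4a2 from -0.73 to -1.20, and for Col15a1 from -0.64 to -0.996. Col4a1 stood at 87.8, 87.6, 95.5 and 88.5 CPM in JGT02 at 100 mg/kg and at 66.1, 76.5, 62.0, 64.4 and 83.9 CPM in RSV. All of these mice lay below the lowest DEX mouse, at 121 CPM, and below the lowest non-treated mouse, at 106 CPM. JGT03 at 400 mg/kg was the group whose range of Col4a1 overlapped that of DEX.
Without DEX mouse 4 the differences of Col4a1 ran from -0.49 to -0.97 and those of Col4a1 and Col4a2 were still called in all 7 groups, while Col15a1 was called in JGT02 at 400 mg/kg and in RSV. JGT02 at 100 mg/kg lies wholly in the set of DEX, so the set term cannot test that difference (with it 12 members were called, all lower). Both JGT03 groups, both JGT04 groups and RSV lie in a later set, and with the set term no member was called by edgeR in any of these 5, with 2 to 6 members at an unadjusted p under 0.05 in each. Of all 14708 genes few were called either, from 0 in JGT03 at 400 mg/kg to 43 higher and 74 lower in JGT04 at 100 mg/kg. In SO the set term rests on JGT02 at 400 mg/kg, the only group there with mice in both sets. Its mice in the set of DEX include mouse 1, which differed from the rest, and the set term without that mouse was not tested. With that term Col4a1 stood between -0.43 and -0.90 in the 5 groups. Set and treatment cannot be told apart in those groups.

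In the group of the same set as DEX, JGT02 at 100 mg/kg, the 10 lower members came from every class. They were Col27a1 (-1.21), Col28a1 (-1.14), Col3a1 (-1.05), Col4a1 (-0.90), Col8a1 (-0.84), Col4a2 (-0.80), Col5a1 (-0.79), Col15a1 (-0.71), Col16a1 (-0.70) and Col6a3 (-0.69), with adjusted p from 0.000247 to 0.0221. Col3a1 stood at 29.5, 25.6, 32.5 and 24.4 CPM, below the lowest DEX mouse, at 38.0 CPM. Without DEX mouse 4, 7 members were called in this group. With the library that stands apart kept, which belongs to this group, 7 members were called higher and 0 lower.
JGT02 at 400 mg/kg, with mice 4 and 5 in a later set, had 17 lower members. The smallest adjusted p were those of Col4a2 (-1.15, 1.26e-06), Col4a1 (-1.20, 2.47e-06), Col16a1 (-1.05, 0.000102), Col23a1 (-0.83, 0.000126) and Col27a1 (-1.09, 0.000256). A fit of only DEX and this group called 6.

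In the groups of later sets the same type IV pair was called. JGT03 at 100 mg/kg called, beside Col4a1 (-0.91), Col4a2 (-0.89) and Col15a1 (-0.64), Col28a1 (-1.01), Col27a1 (-0.99), Col7a1 (-0.93), Col24a1 (-0.81) and Col23a1 (-0.48) as lower. It called Col8a2 as higher (1.27 ± 0.39, adjusted p = 0.0151), which stood at 5.02, 1.99, 6.14, 1.55 and 2.703 CPM there and at 0.751 to 2.00 CPM in DEX. Only mice 1, 3 and 5 of that group lay above the DEX range, and mice 1 and 3 were also its highest in Col1a1, at 110 and 153 CPM. The summed tendon markers of this group ran from 125 to 450 CPM, and their part was not tested. Without mouse 3 of this group 14 members were called.
JGT03 at 400 mg/kg called 14 as lower, led by Col4a2 (-0.73, adjusted p = 0.000916), Col4a1 (-0.77, adjusted p = 0.00122), Col15a1 (-0.79, adjusted p = 0.00163), Col28a1 (-1.14, adjusted p = 0.003) and Col5a1 (-0.96, adjusted p = 0.00398), with 5 called without DEX mouse 4 and 8 without its own mouse 1, 4 or 5. JGT04 at 100 mg/kg called 13, led by Col4a2 (-1.12, adjusted p = 3.55e-06), Col4a1 (-1.09, adjusted p = 1.92e-05), Col16a1 (-0.86, adjusted p = 0.00132), Col15a1 (-0.76, adjusted p = 0.00147) and Col5a1 (-1.03, adjusted p = 0.00151). JGT04 at 400 mg/kg called Col4a2 (-1.01), Col4a1 (-0.93), Col15a1 (-0.74) and Col6a2 (-0.51), with 2 called without DEX mouse 4 and 9 without DEX mouse 2.
RSV called 19 as lower, led by Col4a2 (-1.20, adjusted p = 1.24e-06), Col4a1 (-1.25, adjusted p = 1.95e-06), Col6a2 (-0.99, adjusted p = 7.2e-06), Col15a1 (-0.996, adjusted p = 7.17e-05) and Col16a1 (-1.02, adjusted p = 0.000199). It called Col26a1 (0.83 ± 0.25, adjusted p = 0.0119) and Col4a3 (0.65 ± 0.23, adjusted p = 0.0303) as higher. Col26a1 stood at 3.37, 2.57, 2.69, 3.12 and 3.86 CPM in RSV, above all 4 DEX mice, at 0.945 to 2.21 CPM. Without DEX mouse 4, 13 members were called in RSV. Tendon markers summed to 53.7 to 85.98 CPM in RSV, below the 93.8 to 215 CPM of DEX, and their part was not tested.

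Group means in SO place most treated groups under both controls. Against non-treated, the mean of the 7 treated SO groups was lower for 17 members (14.5% of all genes) and higher for Col20a1 (0.38 ± 0.09; 14.4% of all genes). The lower ones were 6 fibrillar, 3 basement membrane and 8 other chains, with Col3a1 at -1.51 ± 0.21 (adjusted p = 1.25e-06), Col1a1 at -1.19 ± 0.16 (adjusted p = 1.03e-06) and Col6a2 at -0.76 ± 0.10 (adjusted p = 2.02e-07). With the set term 1 was higher and 2 lower, where 778 of all 14708 genes were higher and 515 lower. Fibrillar chains summed to 363 ± 56 CPM in non-treated SO, 270 ± 60 CPM in DEX and from 138 CPM (RSV) to 272 CPM (JGT03 at 100 mg/kg) in treated mice. Basement membrane chains summed to 239 ± 20, 345 ± 123 and 155 to 206 CPM, and the other chains to 165 ± 21, 163 ± 13 and 104 to 139 CPM. Of the 34 members, 15 had their highest SO mean in DEX and 12 in non-treated mice, and 19 had their lowest in RSV.
Mean levels of Col1a1 were 115 ± 22 CPM in non-treated, 69.8 ± 18.4 CPM in DEX and 34.8 CPM (RSV) to 87.1 CPM (JGT03 at 100 mg/kg) in treated SO. Col1a2 stood at 97.8, 66.3 and 37.0 to 81.2 CPM and Col3a1 at 87.0, 57.9 and 25.1 to 45.9 CPM in the same order. JGT03 at 100 mg/kg was the treated group with the highest mean of each of these 3 chains.
Col5a1 stood at 16.3, 16.9 and 7.22 to 11.7 CPM, Col5a2 at 18.4, 20.0 and 10.9 to 16.98 CPM, and Col5a3 at 18.6, 29.0 and 14.3 to 23.2 CPM. Col4a1 stood at 113 ± 10, 168 ± 61 and 70.5 to 98.2 CPM, Col4a2 at 81.3 ± 8.6, 125 ± 43 and 54.4 to 75.0 CPM, and Col15a1 at 31.4, 34.1 and 17.1 to 21.9 CPM. The large SD of DEX in the type IV pair comes with mouse 4.
Col6a1 stood at 46.0, 40.1 and 26.0 to 35.4 CPM, Col6a2 at 36.5, 32.3 and 16.3 to 25.3 CPM, and Col6a3 at 22.4, 26.3 and 13.9 to 20.3 CPM. Col7a1 stood at 3.54, 6.58 and 3.46 to 6.45 CPM, the highest of these means, that of JGT02 at 400 mg/kg, holding mouse 1 at 12.2 CPM and the other 4 mice at 3.34 to 6.32 CPM. Col22a1 stood at 17.3, 13.3 and 11.6 to 14.9 CPM.

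Genes that build, cut and bind collagen were read from lists alongside the chains. Of all genes, 13.2% rose and 13.2% fell in GA and 22.4% rose and 16.7% fell in SO, and for several lists the shares lie near these. Of 22 tested enzymes and chaperones of collagen synthesis, 6 fell and 1 rose in GA under DEX, with Adamts2, which removes the amino-terminal propeptide (-0.53 ± 0.08), and Pcolce, an enhancer of the carboxy-terminal protease (-0.43 ± 0.09), among the falls and Tmem38b, an ion channel of the endoplasmic reticulum (0.55 ± 0.07), the rise. In SO 7 of 21 rose and 2 fell, with Ppib (0.71 ± 0.10) and Serpinh1, the collagen chaperone HSP47 (0.68 ± 0.14), among the rises. Of 6 crosslinking enzymes 1, Loxl2, fell in GA (-1.04 ± 0.12, adjusted p = 6.06e-09), and Lox (1.29 ± 0.46, adjusted p = 0.0235) and Tgm2 (0.37 ± 0.08) rose in SO. The median of the synthesis list was -0.15 in GA and 0.23 in SO, beside -0.01 and 0.05 over all genes.
Of 9 collagen-degrading genes 3 fell in GA, the gelatinase Mmp2 (-0.97 ± 0.11, adjusted p = 1.91e-08), Mmp14 (-0.84 ± 0.12) and Mrc2 (-0.28 ± 0.09), and in SO 2 fell, Mmp2 again (-0.91 ± 0.18, adjusted p = 0.000134), and 1 rose. Of 5 protease inhibitors Timp4 (-0.95 ± 0.19) and Timp2 (-0.55 ± 0.09) fell in GA, while 2 rose in SO, with Timp3 at 0.91 ± 0.12. Among 7 receptors 1 rose and 2 fell in GA and 3 rose in SO, with Ddr2, a receptor for fibrillar collagen, at 0.66 ± 0.13.
Of 16 regulators of fibril assembly 9 fell and 2 rose in GA, among the falls Fn1 (-0.93 ± 0.16) and Fmod (-1.03 ± 0.28), which is also on the tendon list. In SO 2 rose and 2 fell, with Tnxb (0.84 ± 0.14) and Sparc (0.77 ± 0.18) higher and Thbs2 (-0.76 ± 0.20) lower. Of 10 basement membrane partners of type IV collagen 5 fell in GA, with Nid2 (-0.61 ± 0.11) and Nid1 (-0.48 ± 0.08), and 5 rose in SO, with the laminin chains Lama4 (0.89 ± 0.09, adjusted p = 2.6e-09), Lamb1 (0.58 ± 0.13) and Lama5 (0.45 ± 0.13). For 7 of these 10 the SO fold change was higher than that in GA in the interaction test, as for 13.6% of all genes. Of 17 TGF-beta pathway genes 4 rose and 2 fell in GA and 5 rose and 1 fell in SO. Smad7, an inhibitor of the pathway, rose in GA (0.55 ± 0.12) and Ltbp4, a binding protein of latent TGF-beta, fell there (-0.54 ± 0.07), while in SO the ligand Tgfb1 rose (0.73 ± 0.16) and Smad3 fell (-1.09 ± 0.14).

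The ratio between partner chains of the same trimer had a narrower range for the type IV pair than for the type I pair. The ratio of Col4a1 to Col4a2 counts was 1.31 ± 0.07 over the 42 GA libraries (1.15 to 1.49) and 1.33 ± 0.09 over the 42 SO libraries. Within that range it was 1.43 ± 0.03 in non-treated GA and 1.26 ± 0.09 in DEX, and the groups did not overlap. The ratio of Col6a1 to Col6a2 was 1.28 ± 0.09 in GA and 1.40 ± 0.14 in SO, where it was 1.26 ± 0.04 in non-treated mice and 1.60 ± 0.16 in RSV, again without overlap. Col1a1 to Col1a2 was 0.988 ± 0.051 in non-treated GA, 0.841 ± 0.011 in DEX and between 0.651 and 0.805 in the treated groups, the 5 non-treated mice (from 0.919) lying above all 4 DEX mice (to 0.855). The ratio of Col4a1 to Col1a1 was 0.672 ± 0.159 in non-treated GA and 1.45 ± 0.39 in DEX, and 1.03 ± 0.29 and 2.38 ± 0.28 in SO, without overlap in either muscle.
Over the 42 libraries of GA and of SO, Pearson's r of log2 CPM was 0.98 and 0.95 for Col1a1 with Col1a2, 0.98 and 0.97 for Col4a1 with Col4a2, and 0.97 and 0.95 for Col6a1 with Col6a2. It was 0.38 and 0.16 for Col4a3 with Col4a4, both of which lie under 2.5 CPM on average in every group, and 0.42 and 0.12 for Col8a1 with Col8a2. These libraries share treatment groups, sets and total counts, which the correlations hold too. Of 8780 genes compared in GA, those most like Col1a1 were Col1a2, Col6a1, Col3a1, Mmp2 and Col6a2 (r from 0.98 to 0.93), and those most like Col4a1 were Col4a2, Col15a1, Fbn1, Ppp1r3c and Loxl2 (0.98 to 0.92). Of 9087 in SO they were Col1a2, Serpinf1, Col6a1, Col6a2 and Col3a1 for Col1a1 (0.95 to 0.86) and Col4a2, Pfkp, Cyth3, Msn and Col15a1 for Col4a1 (0.97 to 0.88).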

How the data were processed

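The authors deposited expected counts for each gene, given by RSEM 1.3.3 after FastQC 0.11.9, Trim Galore 0.6.5 and STAR 2.7.3a on GRCm38/mm10, per the submitters' processing notes. Their settings, annotation and strand setting are not given in the sources used here. The library kit was directional, per the labels. RSEM shares a read among the genes it fits, and 92.0% of the values, zeros included, were whole. Of the nonzero values 18.5% were not whole. They were rounded to whole numbers, and 42807 genes were listed. In R 4.3.3, edgeR 4.0.16 kept genes by filterByExpr, scaled by TMM and tested by quasi-likelihood, with 1 fit of 9 groups a muscle and 1 fit of both muscles for contrasts between them, p adjusted by Benjamini-Hochberg over all genes. Lengths are exons of the longest principal coding transcript (GENCODE vM21). The fits were tested on simulated counts, with 14320 genes tested in GA and 14577 in SO. Of 67 genes changed 2-fold in each muscle, 88.1% were recovered in GA and 74.6% in SO. At a 1.5-fold change 80.3% of 66 genes were recovered in GA and 49.3% of 67 in SO.

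The members and gene lists were chosen with earlier results of these data known. Genes with per-group values are the 14 members with a mean of 10 CPM or more in a muscle. Members called in DEX against non-treated are named, those called in a treated group against DEX are all named up to 10 and otherwise the 5 of smallest adjusted p in each direction, and up to 3 called genes of each pathway list are named per muscle, except 1 that is not reported here. Genes most like Col1a1 and Col4a1 come from those with a mean of 5 CPM or more. Results were also computed with DESeq2 1.42.0, with DESeq2 scaling in edgeR, without the filter, with the compared groups alone, a replicate block, a set term, the libraries that stand apart kept, and each library left out. Figures were drawn in Python 3.11.15 with matplotlib 3.10.9.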

Additional observations from a re-analysis of the deposited data

Results flagged for a closer look

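Of 110 sets of values looked at, each of 1 group of 4 or 5 libraries, over the abundant members and the class sums, 7 had 1 library far from the rest, where chance gives about 1 in 20. SO DEX mouse 4 was the highest of its group in Col4a2 (189.3 CPM), Col15a1 (55.54 CPM) and the summed basement membrane chains (526.3 CPM). SO non-treated mouse 1 was the highest of its group in Col4a1 (129.6 CPM) and Col4a2 (96.04 CPM). The summed basement membrane chains were highest in mouse 5 of GA JGT03 at 400 mg/kg (150.5 CPM) and mouse 3 of SO JGT03 at 100 mg/kg (246.6 CPM).

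The log2 fold change of DEX against non-treated differed between the muscles for 18 members, by the interaction term of edgeR, each with the higher value in SO. Among fibrillar chains the difference was 1.54 for Col5a3, 1.31 for Col24a1, 1.05 for Col3a1, 0.85 for Col5a2, 0.82 for Col1a2, 0.76 for Col27a1 and 0.70 for Col5a1. Among basement membrane chains it was 1.09 for Col4a1, 1.01 for Col18a1, 0.96 for Col4a2 and 0.78 for Col15a1. Among the other chains it was 1.24 for Col7a1, 0.99 for Col28a1, 0.95 for Col23a1, 0.93 for Col16a1, 0.72 for Col6a3, 0.64 for Col20a1 and 0.49 for Col6a1. The 7 lost without SO DEX mouse 4 are named with the result.

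The libraries left out hold far more collagen RNA than any other of their muscle, 6194 CPM over the 34 members in GA and 8973 CPM in SO. These CPM are scaled to the TMM-adjusted library total of a fit with every library of the muscle kept. In the GA library 24 members stood above and 5 below every other GA library, and in the SO library 20 stood above and 4 below. Col1a1 was at 1652 and 2993 CPM, against at most 243 and 157 CPM elsewhere in the same muscle.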

How the results depend on the processing

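Keeping the library that stands apart moved most counts of called members. In GA 6 were called for DEX against non-treated, 16 for the treated mean, 15 for JGT02 at 100 mg/kg, 1 for each JGT04 dose and 0 for JGT02 at 400 mg/kg, both JGT03 doses and RSV. In SO 4 were called for DEX against non-treated, 3 for the treated mean, 4 for JGT02 at 400 mg/kg, 5 and 3 for JGT03 at 100 and 400 mg/kg, 5 and 2 for JGT04 at 100 and 400 mg/kg and 4 for RSV, with 11 for SO against GA and 7 for the interaction. Signs turned there for Col8a1 in the GA treated mean (0.10) and, in SO JGT02 at 100 mg/kg, for Col16a1 (1.16), Col27a1 (0.36), Col3a1 (2.75), Col5a1 (2.45), Col6a3 (1.12) and Col8a1 (1.616). With the set term 2 were called in GA JGT04 at 400 mg/kg and in GA RSV, 3 for the SO treated mean and 0 in both SO JGT03 groups, both SO JGT04 groups and SO RSV. Calls over all genes fell in these comparisons too, as given with the results. Signs turned with the set term for Col5a2 in the SO treated mean (0.0757) and for Col12a1 (0.11), Col18a1 (0.33) and Col5a3 (0.0423) in SO RSV. With only the compared groups fitted, 0 were called in GA JGT03 at 100 mg/kg, 5 in GA JGT03 at 400 mg/kg, 6 in SO JGT02 at 400 mg/kg, 2 in SO JGT03 at 400 mg/kg and 0 in SO JGT04 at 400 mg/kg. DESeq2 called 1 in GA JGT02 at 100 mg/kg. Without the filter the counts stayed within 1.5 times. At a minimum mean of 0.25 or 1 CPM the rule gives 38 or 32 members.

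With 1 library left out, the count of called members ran in GA from 21 to 27 for DEX, 23 to 29 for the treated mean, 0 to 0, 2 to 8, 0 to 1, 3 to 4, 4 to 6, 8 to 13 and 5 to 10 for JGT02 at 100 mg/kg to RSV in the order of the groups. In SO it ran from 4 to 10, 15 to 20, 7 to 13, 12 to 20, 8 to 14, 5 to 17, 10 to 17, 2 to 9 and 13 to 21 in the same order. For SO against GA it was 21 to 24, and for the interaction 11 to 20. No called member changed sign in these fits. Calls of SO that held every time numbered 3 of 11 for DEX and 11 of 18 for the treated mean. For JGT02 at 100 mg/kg to RSV in SO they numbered 5 of 10, 10 of 17, 6 of 9, 5 of 14, 6 of 13, 2 of 4 and 11 of 21. For the interaction 8 of 18 held.

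Mouse numbers recur in every group, with no statement that a number is shared. Between muscles, same-numbered libraries of a treatment had a median correlation of -0.0105 of their deviations (-0.0139 for other numbers), and 13 of 41 were over 0.1. The numbers were not taken to pair, but these values cannot show whether both muscles came from the same mice. The fits between muscles took the libraries as independent, except with the replicate block. With the number as a replicate block, 24 members were called for GA DEX, 11 for SO DEX and 18 for the interaction. At 18.8 M counts, the shallowest library, a chain at the minimum of 0.5 CPM rests on few counts.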
